A study of Mus musculus with 8 samples.

Results

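The Frizzled genes encode the membrane receptors of Wnt proteins, and 9 of them, Fzd1 to Fzd9, were followed here through every probe set that the platform annotation pairs with their symbols. All 9 were on the array, with 17 probe sets among 22690, and they are 9 of the 12393 genes with a symbol. RNA came from intestinal epithelial cells (IECs) of mice whose strain background was mixed C57BL/6 x 129Sv x FVB, in 4 groups of 2 arrays each. Wild type controls are called WT, mice carrying the Ikkα AA/AA alleles IKKa-AA, mice with inducible, constitutively active β-catenin (β-cat c.a.) bCATca, and mice with both alterations double mutants. All 4 groups had tamoxifen by gavage on 5 days, the controls too, and cells were prepared 15 days after it was started. By the series' own account β-catenin is stabilised in IECs only, while the driver of the recombination, the ages of the mice, the stretch of gut and any pooling of animals were not given in the sources used here. The AA allele removes serines needed to activate IKKα, an NF-κB kinase, and the series asked how this kinase promotes proliferation when β-catenin is stabilised.

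A Frizzled receptor binds a Wnt ligand through a cysteine-rich domain outside the cell and works together with the co-receptors Lrp5 or Lrp6. Inside the cell it recruits Dishevelled proteins, which halts the breakdown of β-catenin, and some members also serve planar cell polarity, the alignment of cells within a sheet. Rnf43 and Znrf3, whose genes are targets of the pathway, remove Frizzled receptors from the surface of intestinal stem cells, so that receptor supply and pathway output are linked. Stabilised β-catenin acts below the receptors. In the gut Fzd7 is known as a receptor of crypt stem cells and Fzd5 as a receptor needed for the maturation of Paneth cells.

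Upstream sequence is shown for a pair of members: Fzd7, which gave the largest difference of the family, and Fzd1, the member with the most matches to the words CTTTGA and CTTTGT, core forms of the site bound by the TCF/LEF partners of β-catenin. The windows are the 250 bases before the RefSeq start on GRCm38.p6, at chr1:59481897-59482146 on the plus strand for Fzd7 and chr5:4758217-4758466 on the minus strand for Fzd1. They are printed 5′ to 3′ along the gene, with matches to either word on either strand in capitals.
Fzd7: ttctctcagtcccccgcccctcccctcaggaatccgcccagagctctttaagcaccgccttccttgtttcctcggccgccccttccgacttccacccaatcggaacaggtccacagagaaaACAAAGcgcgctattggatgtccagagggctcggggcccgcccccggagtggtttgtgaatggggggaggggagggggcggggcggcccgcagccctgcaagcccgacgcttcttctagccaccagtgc
Fzd1: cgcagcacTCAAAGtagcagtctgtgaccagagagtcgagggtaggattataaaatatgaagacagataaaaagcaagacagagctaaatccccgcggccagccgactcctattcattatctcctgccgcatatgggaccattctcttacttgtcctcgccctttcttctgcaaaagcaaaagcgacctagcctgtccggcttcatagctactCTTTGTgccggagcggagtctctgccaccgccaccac
The match in Fzd7 is a CTTTGT on the opposite strand, 123 bases before the start, and reads CTTTGTT when 1 more base is taken. Fzd1 held a CTTTGA on the opposite strand, 236 bases before the start, and a CTTTGT on the gene's own strand, 31 bases before it. The promoter table held 5 of the 9 members, and the windows of Fzd4, Fzd5 and Fzd9 held neither word. Of all 32851 windows of this length in the table, 27.6% held at least 1 of the words (CTTTGA 13.8%, CTTTGT 16.5%), so a match is common, and it marks letters and not a bound site.

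Values below are log2 intensities, differences are between group means on that scale, each with its standard error (SE) from the fitted model, and every group has n = 2 arrays. Levels are compared within a probe set and not between probe sets, since probes differ in how brightly they bind. A difference passed at a limma p under 0.05 after Benjamini-Hochberg adjustment over all 22690 probe sets. WT replicate 1 read as female (Xist 9.18, Eif2s3y 2.02), while WT replicate 2 (Xist 4.01, Eif2s3y 7.56) and the 6 arrays of the other groups read as male. Every comparison with WT, and the interaction, thus rests on a WT pair of mixed sex. Values without WT replicate 1 are given beside each Frizzled call, and not for the marker genes and other Wnt pathway genes. Transcripts read as absent gave 2.02 to 2.56 for Y-linked genes on WT replicate 1, and 3.56 to 4.03 for Xist on the other arrays. Such readings differed between probe sets, so they are a rough guide for the others and no limit of detection. Group means up to the highest reading, 4.03, are called near background. By that reading 7 of the 17 probe sets were near background in all 4 groups: those of Fzd1, all 4 of Fzd3, and the dimmer ones of Fzd4 and Fzd6. A further 2, of Fzd2 and Fzd8, were near background in 3 groups.

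Of 10 epithelial marker genes, Epcam and Vil1 among them, only Krt18 passed a test, rising in bCATca against WT by 1.17. The summed level of the 10 lay between 15.17 and 15.35 on the log2 scale on all 8 arrays, while markers of T cells were detected too, with sums from 9.66 to 13.06. Replicates differed most in IKKa-AA, with an SD of 0.412 for the difference between replicates over all probe sets, against 0.298 to 0.339 in the other groups. Median intensities were between 50.9 and 53.8.

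**Figure D1:**
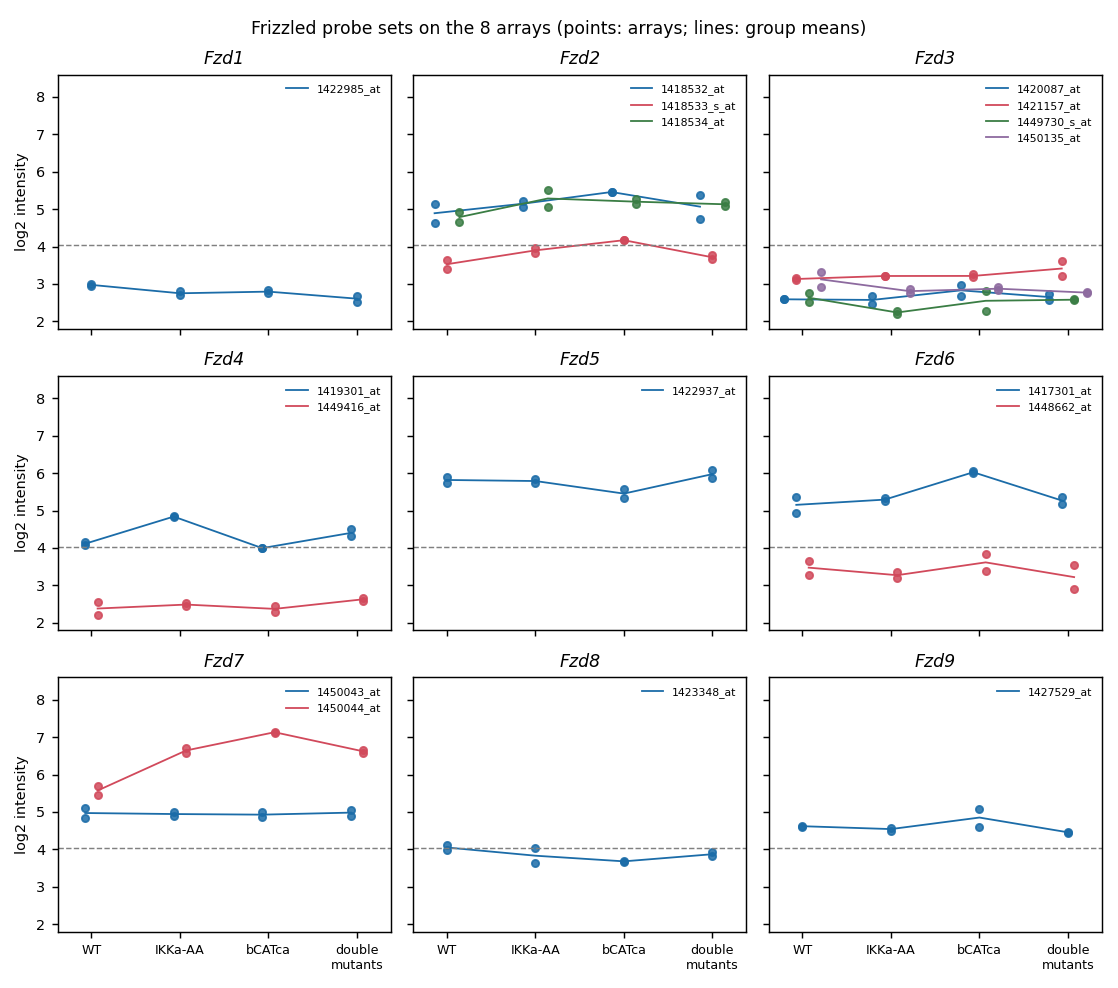
Log2 intensity (vertical axis) of the 17 Frizzled probe sets in the 4 groups (horizontal axis), 1 panel per gene, with a point per array, a line through the group means and a colour per probe set. The dashed line is the highest reading of an absent transcript, 4.03, and probe set 1450044_at of Fzd7 runs from 5.45 to 7.15 while 1450043_at of the same gene stays between 4.83 and 5.12.

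The comparison of bCATca with WT asked what stabilised β-catenin changed among the receptors while IKKα was intact. A probe set each of Fzd7, Fzd6 and Fzd2 rose, and no probe set fell. That is 3 of 17 probe sets past the test, all higher, where 7.31% of all probe sets passed and 4.34% passed as higher. The median difference of the 17 was 0.08, against -0.0025 over all probe sets, and 9 of 17 differences were above 0.

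Fzd7 lies on chromosome 1 (59482147 to 59486955). Its probe set 1450044_at read 5.45 and 5.70 on the WT arrays, 7.15 and 7.12 with bCATca, 6.71 and 6.58 with IKKa-AA, and 6.67 and 6.58 when both were combined. WT was lowest, bCATca highest, and the 2 groups with the AA allele lay together between them, with no overlap between either of the outer groups and any other. Fzd7 rose by 1.56 in bCATca (SE 0.15, 95% interval 1.23 to 1.89, 2.95-fold, adjusted p = 0.00123). The rise held under all 17 alternatives tried, with differences from 1.30 to 1.69 and adjusted p-values from 0.000829 to 0.0153. Without WT replicate 1 it was 1.43 (adjusted p = 0.0153).

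The other probe set of Fzd7 did not show this. Probe set 1450043_at read 5.12 and 4.83 on the WT arrays, 4.87 and 4.99 with bCATca, 4.90 and 4.99 with IKKa-AA, and 5.07 and 4.90 when both were combined, so that all 4 groups overlapped. Its difference between bCATca and WT was -0.04 (SE 0.15), with a 95% interval of -0.40 to 0.31 that leaves out the rise seen at 1450044_at. Over the 8 arrays the probe sets of Fzd7 correlated at r = -0.23 (Pearson, as a description). The platform annotation pairs both with the same transcript accession, and both had group means above the background reading throughout. Where each lies in the transcript was not determined here. With the probe sets of a gene averaged, Fzd7 differed by 0.76 (SE 0.11, adjusted p = 0.0101 over genes). It was then the only Frizzled gene past the test in this comparison. That average joins the rise at 1450044_at with the -0.04 at 1450043_at, so it does not settle their disagreement.

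Fzd6, a receptor known for its part in planar polarity, lies on chromosome 15 (39006149 to 39038192). Probe set 1417301_at read 4.94 and 5.36 on the WT arrays, 6.00 and 6.06 with bCATca, 5.33 and 5.25 with IKKa-AA, and 5.18 and 5.36 when both were combined. Only the bCATca arrays stood apart, and the other 3 groups overlapped one another. The rise in bCATca was 0.87 (SE 0.17, 1.83-fold, adjusted p = 0.0232), and the call ended without WT replicate 1 (difference 0.66, adjusted p = 0.123), without bCATca replicate 1 (0.90, adjusted p = 0.0675) and without bCATca replicate 2 (0.84, adjusted p = 0.137). Probe set 1448662_at, near background in every group, differed by 0.14 (SE 0.25, adjusted p = 0.760) in the same direction.

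Fzd2, a receptor abundant in mesenchymal cells, lies on chromosome 11 (102604431 to 102608058) and had 3 probe sets. Probe set 1418533_s_at read 3.41 and 3.65 on the WT arrays, 4.18 and 4.16 with bCATca, 3.97 and 3.83 with IKKa-AA, and 3.77 and 3.66 when both were combined. No 2 groups overlapped in this order, and the rise in bCATca was 0.64 (SE 0.15, adjusted p = 0.0378). As 3 of the 4 group means were near background, no fold is given, since the readings lie close to those of absent Xist. The call ended without any 1 of the WT, bCATca and double mutant arrays (adjusted p from 0.0556 to 0.178; 0.52 and 0.178 without WT replicate 1), and with an offset of 16 added before log2, which gave 0.30 (adjusted p = 0.0545). The brighter probe sets of Fzd2 differed in the same direction by 0.57 (1418532_at, SE 0.24, adjusted p = 0.175) and 0.41 (1418534_at, SE 0.19, adjusted p = 0.203) without passing. Of the 12 marker genes of stroma, where this receptor is also known, only Vim rose, and the median difference of the 12 was -0.13. Their summed level, 10.45 and 10.03 in bCATca against 11.25 and 11.10 in WT, rests mostly on Fbln1, at 9.93 and 9.43 in bCATca with a difference of -1.28 (adjusted p = 0.0923). The part of stroma in the Fzd2 values was not tested.

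The other 6 receptors had no probe set past the test in bCATca against WT. Fzd5 read 5.90 and 5.74 in WT and 5.32 and 5.58 in bCATca, a difference of -0.36 (SE 0.16, adjusted p = 0.182) with both bCATca arrays below both WT arrays. Fzd8, which shares a close sequence relation with Fzd5, read 3.98 and 4.12 in WT and 3.67 and 3.69 in bCATca, a difference of -0.37 (SE 0.17, adjusted p = 0.196) at a level near background in bCATca. Fzd9 differed by 0.23 (SE 0.17), and its bCATca arrays lay 0.48 apart, at 4.61 and 5.09, with WT at 4.63 and 4.61. Fzd4, the receptor of norrin in blood vessels of the retina, differed by -0.12 at 1419301_at and by -0.01 at 1449416_at. Fzd1 differed by -0.18, and the probe sets of Fzd3, a receptor of axon guidance, differed by -0.25 to 0.24, all near background.

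**Figure D2:**
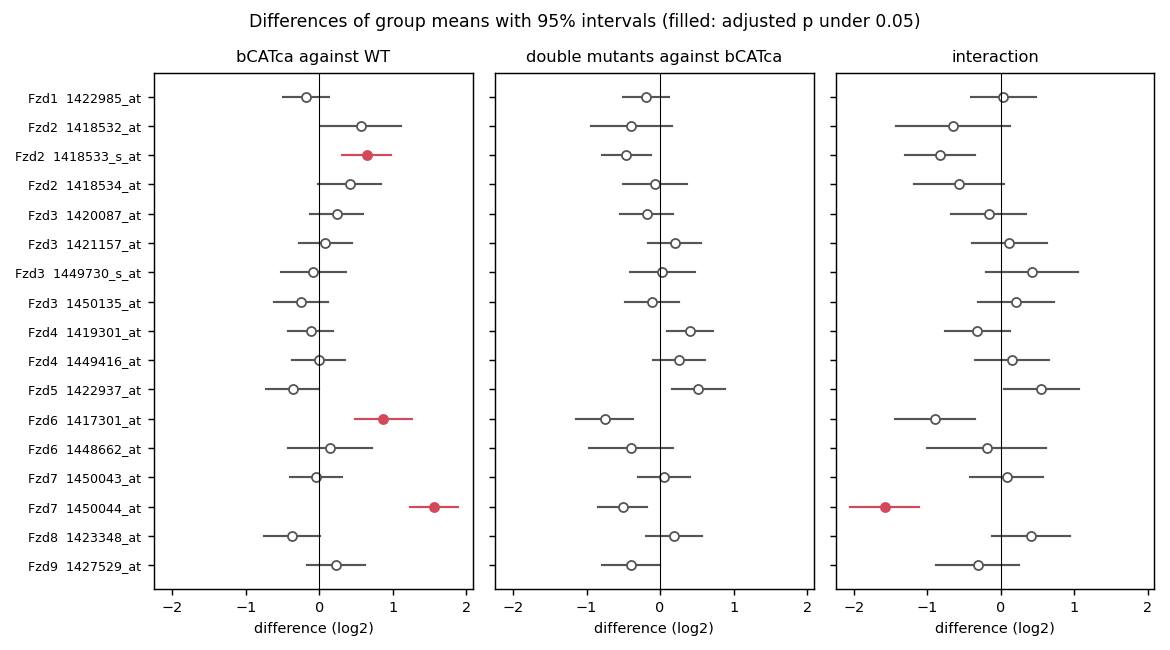
Differences of group means (horizontal axis, log2) with 95% intervals for the 17 Frizzled probe sets (rows) in bCATca against WT, double mutants against bCATca, and the interaction. Filled points passed the test: 1450044_at of Fzd7, 1417301_at of Fzd6 and 1418533_s_at of Fzd2 in the left panel, none in the middle panel, and 1450044_at of Fzd7 alone, at -1.58, in the right panel.

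Cell type markers moved with these receptors in bCATca, where 5.14% of all 12393 genes passed as higher and 3.12% as lower. Of 7 measured stem cell genes 4 rose and none fell, Cd44 by 2.29, Axin2 by 2.02, Ephb3 by 1.50 and Ascl2 by 1.37. Summed, all 7 gave 9.54 and 9.46 on the WT arrays and 11.16 and 10.90 with bCATca. They gave 9.84 and 10.04 with IKKa-AA, and 10.03 and 10.41 when both were combined. Of 4 Paneth cell genes 2 rose, Pla2g2a by 3.69 and Mmp7 by 1.89. The sum of all 4 was 13.82 and 13.73 on the WT arrays and 14.13 and 14.27 with bCATca. It was 12.86 and 13.92 with IKKa-AA, and 13.16 and 13.17 when both were combined. Of 8 enterocyte genes 2 fell, Apoc3 and Slc15a1. The sum of all 8 was 15.96 and 15.99 on the WT arrays and 15.50 and 15.01 with bCATca. It was 15.56 and 15.90 with IKKa-AA, and 15.52 and 15.68 when both were combined. Of 8 genes listed for smooth muscle, which is not epithelial, Myl9 rose, by 5.42, and Tagln fell, by 0.66. The sum of that list, 9.28 and 9.11 in bCATca and 7.34 to 7.79 on the other 6 arrays, rests on Myl9, at 8.86 and 8.64 in bCATca, while Des (-0.73) and Actg2 (-0.49) were not higher. All 9 T cell genes were lower in bCATca than in WT, none past the test, with a median of -0.78. Cd14 of 8 myeloid genes rose by 1.32, and Vwf of 8 endothelial genes by 1.03 at a level near background. A larger share of cells of a type and more RNA per cell cannot be told apart in bulk RNA. The part of these cell types in the receptor values was not tested.

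IKKa-AA was compared with WT to ask what the AA allele did alone. No Frizzled probe set passed the limma test, where 0.0309% of all probe sets passed. An unadjusted p under 0.05 was found for 4 of 17, and for 2708 of all 22690. Fzd7 at 1450044_at had the smallest p of the family, with both IKKa-AA arrays above both WT arrays and a difference of 1.07 (SE 0.15, 95% interval 0.74 to 1.40, adjusted p = 0.107). It passed without IKKa-AA replicate 2 (1.13, adjusted p = 0.0296) and not without IKKa-AA replicate 1 (1.01, adjusted p = 0.362). Either fit leaves 1 IKKa-AA array, assumed to vary like the other groups, so neither p measures the spread within IKKa-AA. Fzd4 at 1419301_at read 4.08 and 4.15 on the WT arrays, 4.00 and 3.99 with bCATca, 4.82 and 4.86 with IKKa-AA, and 4.50 and 4.31 when both were combined. It was thus higher on all 4 arrays with the AA allele than on any array without it, by 0.73 in IKKa-AA against WT (SE 0.13, adjusted p = 0.219) and by 0.41 in double mutants against bCATca (SE 0.13, adjusted p = 0.238), and neither difference passed. The dimmer probe set of Fzd4, near background, gave 0.11 and 0.26. Cell type markers set IKKa-AA replicate 1 apart from replicate 2, with sums of 10.98 against 12.89 for T cells, 9.23 against 10.30 for myeloid cells and 9.78 against 10.89 for stroma. All 9 T cell genes averaged below WT in IKKa-AA, none past the test, and the part of these markers in the receptor values was not tested.

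Double mutants were compared with bCATca to ask how the AA allele changed the receptors on top of stabilised β-catenin. No Frizzled probe set passed the limma test, where 0.732% of all probe sets passed. An unadjusted p under 0.05 held for 5 of 17, and for 3081 of all 22690. The 3 probe sets higher in bCATca were all lower in double mutants than in bCATca, in comparisons that share the bCATca arrays: Fzd6 by -0.76 (SE 0.17, adjusted p = 0.0985), Fzd7 by -0.51 (SE 0.15, adjusted p = 0.177) and Fzd2 by -0.46 (SE 0.15, adjusted p = 0.223). Fzd5 differed the other way, with 5.87 and 6.08 in double mutants, above both bCATca arrays and overlapping WT, and a difference of 0.52 (SE 0.16, 95% interval 0.16 to 0.88, adjusted p = 0.203). Fzd9 differed by -0.39 (SE 0.17, adjusted p = 0.370), with 4.46 and 4.45 in double mutants. T cell markers moved with this comparison, none of 9 past the test, with sums of 10.09 and 9.66 in double mutants against 12.38 and 12.00 in bCATca, and those of myeloid cells with 9.24 and 9.20 against 10.18 and 10.21. None of 7 stem cell genes passed here, though all 7 were below 0 (median -0.88). All 4 Paneth cell genes were below 0 as well (median -1.15), and 1 of them, Pla2g2a, fell past the test. All 8 enterocyte genes were above 0 (median 0.66), none past the test. Among 8 smooth muscle genes 1 fell, where 0.629% of all 12393 genes passed as lower. The part of these markers in the receptor values was not tested.

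Against WT, double mutants were higher at 1 of the 2 Fzd7 probe sets. That was 1 of 17 probe sets past the test, where 0.851% of all probe sets passed and 0.591% as higher. At 1450044_at the difference was 1.05 (SE 0.15, 95% interval 0.72 to 1.38, 2.07-fold, adjusted p = 0.0266), while 1450043_at gave 0.01 (95% interval -0.34 to 0.36). The call at 1450044_at ended without either WT array or either double mutant array (differences from 0.92 to 1.18, adjusted p from 0.0891 to 0.180, with 0.92 and 0.180 without WT replicate 1) and when the probe sets were averaged (0.53, adjusted p = 0.0795). Fzd6 at 1417301_at differed by 0.12 (SE 0.17, 95% interval -0.27 to 0.50) and Fzd2 at 1418533_s_at by 0.18 (SE 0.15, 95% interval -0.15 to 0.52). Of 9 T cell genes 4 fell in double mutants against WT and of 7 stem cell genes 2 rose, Axin2 and Cd44, and their part in the Fzd7 value was not tested.

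Double mutants were also set against IKKa-AA, which asks what stabilised β-catenin did in mice with the AA allele. No Frizzled probe set passed the limma test, where 0.0529% of all probe sets passed. At an unadjusted p under 0.05 there was 1 of 17, and 1620 of all 22690. Fzd7 at 1450044_at differed by -0.02 (SE 0.15, 95% interval -0.35 to 0.31) and Fzd6 at 1417301_at by -0.02 (SE 0.17, 95% interval -0.41 to 0.36). The probe set with the smallest p was that of Fzd4, 1419301_at, at -0.44 (SE 0.13, adjusted p = 0.585).

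Whether stabilised β-catenin acted alike with and without the AA allele was tested by the interaction, the difference between double mutants and IKKa-AA minus that between bCATca and WT. A single Frizzled probe set of 17 passed, 1450044_at of Fzd7, below 0, where 0.264% of all probe sets passed and 0.163% below 0. Its value was -1.58 (SE 0.21, 95% interval -2.05 to -1.11, adjusted p = 0.0388): β-catenin went with 1.56 more in mice with normal IKKα and with -0.02 in mice with the AA allele. There IKKa-AA alone already lay 1.07 above WT, which did not pass, and double mutants lay 1.05 above WT. The other Fzd7 probe set, 1450043_at, gave 0.08 (SE 0.22, 95% interval -0.42 to 0.58). The call at 1450044_at ended without any 1 of the WT, bCATca and double mutant arrays (values from -1.71 to -1.45, adjusted p from 0.0673 to 0.147, the latter of each without WT replicate 1), held without either IKKa-AA array (adjusted p = 0.0499 and 0.0282), and ended when the probe sets of a gene were averaged (-0.75, adjusted p = 0.116). Fzd6 at 1417301_at gave -0.90 (SE 0.24, adjusted p = 0.185) and Fzd2 at 1418533_s_at -0.83 (SE 0.21, adjusted p = 0.163). The other probe sets of Fzd2 gave -0.65 and -0.57, while Fzd5 gave 0.55 (SE 0.22, adjusted p = 0.316) and Fzd8 0.41. Some cell type markers moved with the interaction: Pla2g2a of Paneth cells (-2.14, adjusted p = 0.0467) and Myl9 of the smooth muscle list (-3.23, adjusted p = 0.0186) passed below 0. Myl9 does not stand for its list, whose median was -0.17, with Des at 0.95 and Actg2 at 0.51. All 8 enterocyte genes (median 0.65) and 10 of 12 stroma genes (median 0.32) were above 0, none past the test. None of the 7 stem cell genes passed, all 7 were below 0 and their median was -1.02. The part of these markers in the Fzd7 value was not tested.

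How far the probe sets of a gene told the same story could be asked for 5 of the 9 receptors. The 3 probe sets of Fzd2 had differences of the same sign in all 6 comparisons, which share arrays, and correlated over the 8 arrays at r = 0.59, 0.59 and 0.39. The pair of Fzd6 had the same sign in 4 of 6 comparisons (r = 0.37), and so had the pair of Fzd4 (r = 0.39), in both cases with 1 member of the pair near background in every group. The pair of Fzd7, both above that reading, had the same sign in 1 of 6 comparisons. The 4 probe sets of Fzd3, all near background, correlated at r = -0.50 to 0.38, and had the same sign in 1 to 4 of 6 comparisons. In all, the probe sets of a gene were of 1 sign in 15 of 30 pairs of gene and comparison. Sequences of the probes were not used here.

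**Figure D3:**
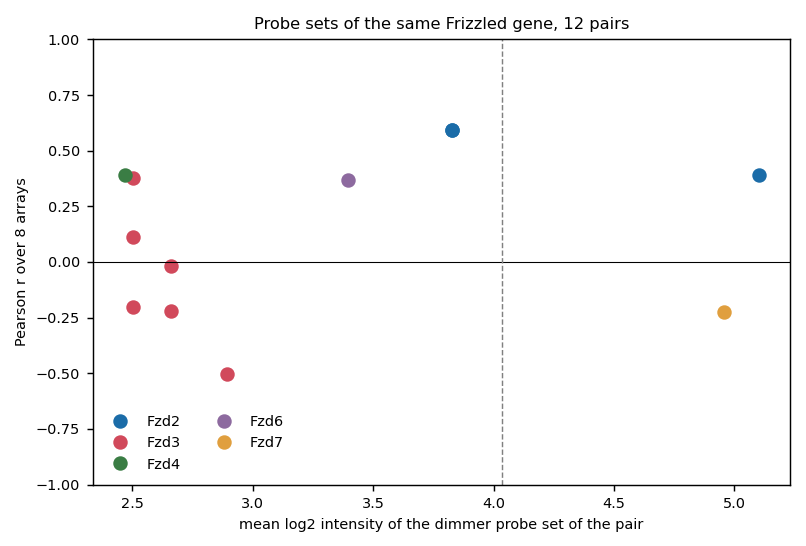
Pearson r over the 8 arrays (vertical axis) for the 12 pairs of probe sets of the same Frizzled gene, against the mean log2 intensity of the dimmer probe set of the pair (horizontal axis); the dashed line is the background reading of 4.03. The pairs of Fzd2 lie at 0.39 to 0.59 (2 of their points coincide at 0.59), and the pair of Fzd7, to the right of the line, at -0.23.

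Within the family, 1450044_at of Fzd7 correlated over the 8 arrays with 1418533_s_at of Fzd2 at r = 0.90 and with 1417301_at of Fzd6 at r = 0.74. These probe sets were picked because they rose in bCATca on the same arrays. A positive r among them follows in part from that choice and is no separate evidence of a link. Fzd5 and Fzd8 ran against them, Fzd5 at r = -0.47 with Fzd7 and -0.77 with Fzd6, and Fzd8 at -0.74 and -0.62. Near background, Fzd1 and 1450135_at of Fzd3 also ran against Fzd7, at r = -0.61 and -0.71. Among 10378 probe sets with a gene symbol and a mean above the median, those closest to Fzd7 were of Mul1 (r = 0.99), Mfsd4a (r = 0.99) and Atp6v0b (r = 0.99). Mfsd4a averaged 6.72 in WT, 7.94 in IKKa-AA, 8.39 in bCATca and 7.98 in double mutants, the same order of the outer groups as Fzd7. Those closest to Fzd6 were of Csnk1g2 (r = 0.99), Stx1a (r = 0.99) and Slc38a1 (r = 0.98), and those closest to Fzd2 of Bub3, Faap20 and Parp2 (r = 0.96 each). Stx1a averaged 6.48 in bCATca and 5.66 to 5.69 in the other groups, as Fzd6 did with bCATca alone apart. All these r are over the same 8 arrays and describe them only.

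The receptors were set beside other genes at the same step of the pathway, with the brightest probe set standing for a gene. On that basis 2 of 9 Frizzled genes rose in bCATca against WT, with a median difference of 0.08, against 5.14% higher and 3.12% lower over all 12393 genes and a median of 0.01. Of 11 co-receptors and other Wnt receptors 1 rose: Gpc3, a cell surface glypican, by 3.02 (SE 0.53, adjusted p = 0.0166). Lrp5 and Lrp6, the co-receptors, differed by 0.43 (adjusted p = 0.113) and -0.33 (adjusted p = 0.162). Of 6 genes of Frizzled turnover and R-spondin signalling 1 rose, Rnf43, the ligase that removes Frizzled receptors, by 1.78 (SE 0.26, adjusted p = 0.00860), and Lgr5, an R-spondin receptor of stem cells, differed by 2.01 (SE 0.60, adjusted p = 0.0787).

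Genes acting just inside the membrane or in planar polarity included the closest relative of the Frizzled genes. Of 10 measured members 3 rose in bCATca: Smo, the Frizzled-like transducer of Hedgehog signalling, by 1.62 (SE 0.17, adjusted p = 0.00211), Celsr1, a polarity cadherin, by 1.11 from a level near background, and Vangl1, a polarity protein, by 0.65. Smo fell by 1.13 in double mutants against bCATca (SE 0.17, adjusted p = 0.0304), and its interaction was -1.55 (SE 0.24, adjusted p = 0.0536), beside -1.58 for Fzd7. Of 15 inhibitors that bind Wnt or act at its receptors 4 rose, Notum by 3.24, Apcdd1 by 2.06, Shisa2 by 1.72 and Wif1 by 1.53 to a level still near background. In double mutants against bCATca 2 of 15 were lower, Notum at -2.04 and Wif1 at -1.21, where 0.629% of all 12393 genes passed as lower. None of 19 Wnt ligand genes passed in any of the 6 comparisons. Over all genes 5.14% passed as higher and 3.12% as lower in bCATca against WT. In the other comparisons at most 0.791% passed as higher and 0.629% as lower. The median difference of the Wnt ligand genes in bCATca against WT was -0.16, with the smallest p for Wnt11 at 0.81 (adjusted p = 0.0876). Porcn, the acyltransferase that attaches the lipid to Wnt, and Wls, the carrier that takes Wnt to the surface, differed by 0.35 and -0.18 without passing.

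**Figure D4:**
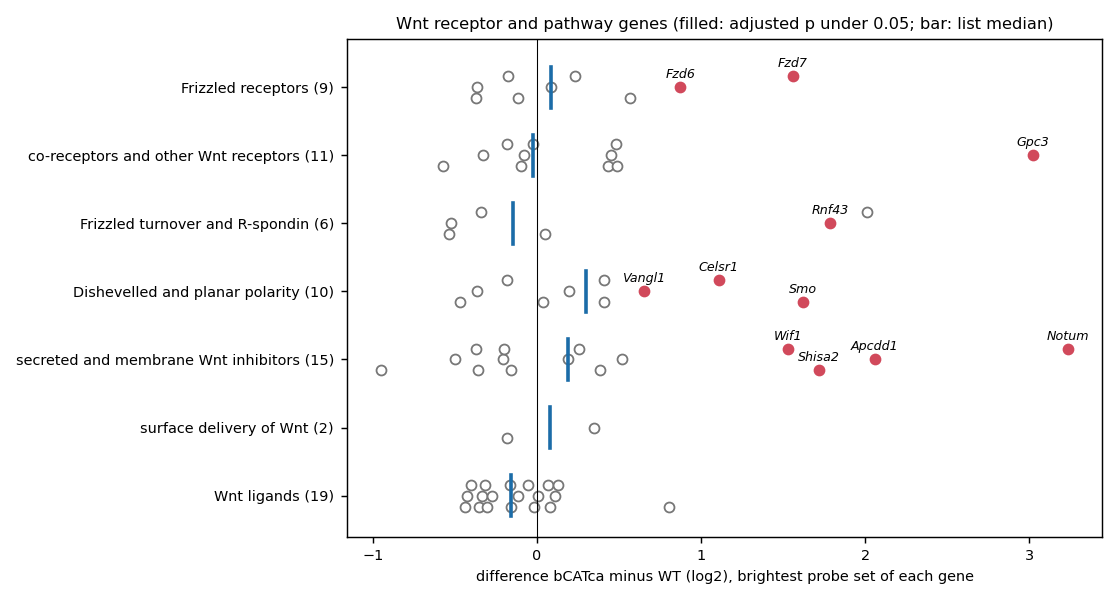
Difference between bCATca and WT (horizontal axis, log2) for each measured gene of the Frizzled family and 6 other lists of the Wnt pathway (rows, with the number of genes in brackets), taking the brightest probe set of a gene. Filled points passed the test and are named, and bars are list medians: Fzd7 at 1.56 and Fzd6 at 0.87 stand apart from the other 7 receptors, which lie between -0.37 and 0.57.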

How the data were processed

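RNA from 8 samples was hybridised to 1 Affymetrix platform after amplification of 200 ng of total RNA with a biotin label, per the labels' protocols. The authors deposited linear intensities, 1 per probe set and array. RMA and affy are named in the submitters' processing notes, without versions. RMA gives log2 values, so the linear scale is read from the values. Log2 was taken of every intensity. Arrays carry no read depth, and their number limits the precision.

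For all 22690 probe sets on 8 arrays, limma 3.58.1 (R 4.3.3; lmFit, then eBayes) estimated the 4 group means, with 4 residual and 4.37 prior degrees of freedom. The fit was tested on simulated data. Symbols were updated through the Entrez ID for 20351 of 20380 probe sets with 1 symbol, and 29 kept that of the platform annotation; 691 had several symbols, 1555 none, and 64 were controls. Named genes were all members, up to 3 members past the test per list and comparison (or that with the smallest p), and the 3 genes closest to each passing probe set. A 4th inhibitor, Lrp5, Lrp6, Lgr5, Wls and the background reading of 4.03 were chosen after values were seen, as was the word CTTTGT. Members and lists were chosen with earlier results of these data known. No label says that replicates are separate animals. The WT arrays differ in sex and so hold RNA of different animals, and in the other groups the spread behind the p-values may be technical. Alternatives covered normalization, filtering, an offset of 16, the gene level, the groups fitted, the variance model, a replicate block and leaving out arrays. Proteins were not compared here. Python 3.11.15, pandas 2.3.3, numpy 2.4.6 and matplotlib 3.10.9 were used for tables and figures.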

Additional observations from a re-analysis of the deposited data

Results flagged for a closer look

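The interaction of probe set 1450044_at of Fzd7, at -1.58 on the log2 scale (adjusted p = 0.0388, limma over 22690 probe sets), passed the test of whether the effect of stabilised β-catenin differed between mice with and without the AA allele. The other 16 Frizzled probe sets did not pass, and 1450043_at of Fzd7 gave 0.08 (SE 0.22, 95% interval -0.42 to 0.58). The call at 1450044_at was lost in 8 of 15 alternatives fitted for that probe set. It was also lost when the probe sets of Fzd7 were averaged (-0.75, adjusted p = 0.116). At 1450044_at the bCATca arrays exceeded both WT arrays, while double mutants overlapped IKKa-AA. The arrays of IKKa-AA and of double mutants also lay above both WT arrays. Their differences from WT were 1.07 (limma, adjusted p = 0.107) in IKKa-AA and 1.05 (adjusted p = 0.0266) in double mutants. Groups of 2 arrays allowed no test for a single array far from the others.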

How the results depend on the processing

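The rise of Fzd7 in bCATca against WT held under all 17 alternatives. The 17 Frizzled probe sets gave 3 calls there, and 1 when only probe sets above the median level were tested (2 Frizzled probe sets remained) or when probe sets of a gene were averaged; without each array in turn the count ran from 1 to 3. A group left with 1 array was assumed to vary like the others. With the offset the count was 2, with Fzd2 lost. In double mutants against WT and in the interaction, the 1 call became 0 with an offset of 16 before log2, with probe sets averaged and with the replicate block, and 0 to 1 without each array in turn. In IKKa-AA against WT the count of 0 ran from 0 to 1 without each array in turn. Quantile normalization, cyclic loess, the variance model with a trend, the brightest probe set per gene and only the compared groups (not possible for the interaction) left every count within 1.5 times. Averaging probe sets and leaving out both IKKa-AA arrays were chosen after the data were seen; the latter left every count it could give within 1.5 times. Of the calls of single probe sets none changed sign under any alternative. Of 1448 values of differences not past the test, 1 passed under an alternative (Fzd7 in IKKa-AA against WT without IKKa-AA replicate 2) and 147 moved by more than the residual SD. Probe sets of a gene had 1 sign in 16 of 30 cases with quantile normalization and 15 with cyclic loess. Over all probe sets the share of interaction calls above 0 was 38.3%, and 49.0% with quantile normalization. The differences between replicates 1 and 2 correlated between groups at -0.42 to 0.12, and that of WT also holds the difference in sex. These correlations cannot decide whether a replicate number marks samples prepared together, since such samples need not differ in a common direction. With the replicate block the count in bCATca against WT was 2, with Fzd2 lost (adjusted p = 0.0693). Probe sets near background limit what can be said of Fzd1, Fzd3 and Fzd8. The same holds for the Fzd2 call at 1418533_s_at, near background in 3 groups, and for the dimmer probe sets of Fzd4 and Fzd6.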
